A study of Bos taurus with 6 samples.

Results

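MicroRNAs of muscle, liver, endocrine cells and nerve cells were followed in granulosa cells, the steroid-producing somatic cells around the oocyte. The members were all mature names in the count tables of miR-1, miR-133 and miR-206 (muscle), miR-122 (liver), miR-375 (endocrine cells), and miR-9 and miR-124 (nerve cells), whatever their letter or arm. This gave 10 of 755 mature names: bta-miR-1, bta-miR-133a, bta-miR-133b, bta-miR-206, bta-miR-122, bta-miR-375, bta-miR-9-5p, bta-miR-9-3p, bta-miR-124a and bta-miR-124b. Small RNA was sequenced in 3 libraries of granulosa cells from preovulatory dominant follicles and 3 from anovulatory subordinate follicles. Both groups came from Simmental heifers with synchronized oestrus, slaughtered on day 19 of the oestrous cycle, and follicles were divided by their surface diameter alone. RNA was pooled before library preparation, and the same animals gave far fewer dominant than subordinate follicles. The spread between libraries is therefore the spread between pools, and the libraries may not be independent.

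These miRNAs are known for being made almost entirely in a few differentiated cell types. MiR-1 and miR-133a are produced together in heart and skeletal muscle, and miR-206 and miR-133b together in skeletal muscle. MiR-122 is the main miRNA of hepatocytes, miR-375 is abundant in pancreatic islets and other endocrine cells, and miR-124 and miR-9 mark neurons and neural progenitors. None of them is in the paper's list of the most abundant miRNAs of either follicle type. The gene table of RefSeq for the assembly ARS-UCD2.0 held all 13 precursors of the members. In it MIR1-1 lies next to MIR133A-1, MIR1-2 next to MIR133A-2, and MIR206 next to MIR133B, so the muscle members fall into 3 neighbouring pairs of precursors.

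The members were rare. Together they had 22, 8 and 19 reads in dominant replicates 1 to 3 and 8, 10 and 7 reads in subordinate replicates 1 to 3, out of library totals between 190385 and 364125 reads with 1 value per mature miRNA. This equals between 42.0 and 84.7 CPM (counts scaled to a common library size, here by total count) in dominant and between 22.8 and 27.5 in subordinate libraries. Without bta-miR-375 and bta-miR-122 the remaining members had 11, 1 and 7 reads in dominant and 8, 9 and 6 reads in subordinate libraries, and the groups overlapped. No member exceeded 9 reads in any library. Bta-miR-375, bta-miR-122 and bta-miR-1, 3 of the 10 members, exceeded 3 reads in at least 1 library, as 289 of all 755 names (38.3%) did. Low counts were common among all names. By reads over all libraries bta-miR-375 stood above 67.5% of the 755 names and bta-miR-1 above 65.3%. A level of 3 reads, below which a miRNA could not be told from 0, was worth between 8.86 and 13.9 CPM after TMM scaling by edgeR, which are used for CPM from here on.

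**Figure D1:**
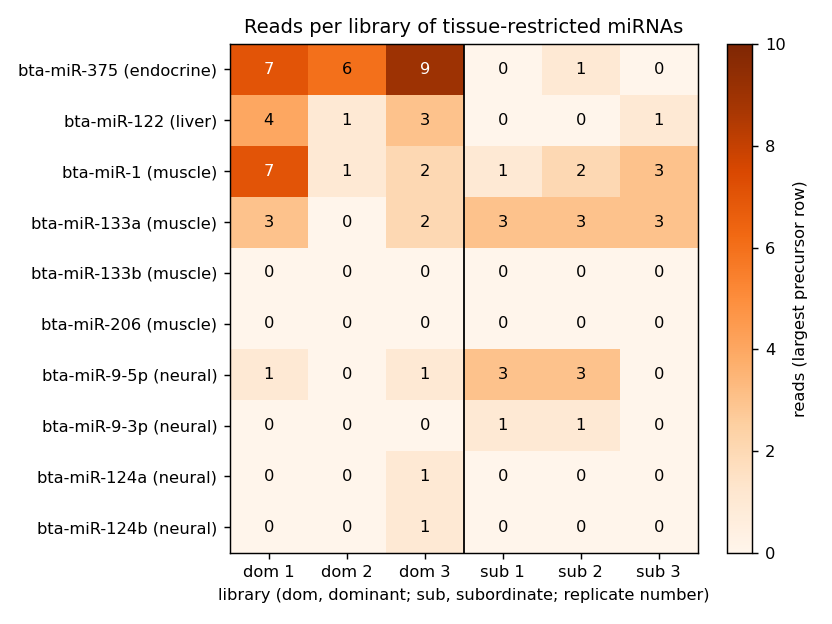
Reads of the 10 members (rows, with the tissue each is known for) in the 3 dominant and 3 subordinate libraries (columns), each cell showing the whole number of reads. Bta-miR-375 had 6 to 9 reads in the dominant libraries and at most 1 in the subordinate ones, and bta-miR-133b and bta-miR-206 had no read in any library.

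The members fell into those without a read, those with a few scattered reads, those near 3 reads in both groups, and those with more reads in dominant libraries. Detection required 1 read or more in 2 or more libraries of a group. By this rule 5 members were detected in dominant and 4 in subordinate follicles, 3 of them in both. Differential expression was tested with edgeR's quasi-likelihood test on the 353 miRNAs that met the rule in either group, which included 6 of the 10 members. Fold changes are of dominant over subordinate libraries. Calls required a fold change of 1 or more on the log2 scale in either direction, p up to 0.05 and a Benjamini-Hochberg adjusted p up to 0.1. Bta-miR-375 and bta-miR-122 were called higher in dominant follicles, against 42 of all 353 miRNAs tested (11.9%) called in that direction and 34 (9.63%) in the other. Both entered the test only through the dominant libraries, as bta-miR-9-3p did only through the subordinate ones. The share called among the tested members is therefore no measure of the group.

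Bta-miR-375 had 7, 6 and 9 reads in dominant replicates 1 to 3 and 0, 1 and 0 reads in subordinate replicates 1 to 3. All 3 dominant libraries lay above all 3 subordinate ones, and the single subordinate read came from replicate 2. In normalized units the dominant libraries had 24.7, 27.8 and 28.7 CPM, a mean of 27.1 ± 2.09 (SD, n = 3), and every one of them was above the level of 3 reads. The subordinate libraries had 1.08 ± 1.87 CPM (SD, n = 3), below that level. On the log2 scale the fold change was 4.19 ± 0.83 (standard error), with an adjusted p of 0.00791 in edgeR. By size of the fold change it ranked 10 among the 353 miRNAs tested. The ratio of pooled CPM was 25.2, with an exact 95% interval from 4.07 to 1040 that covers counting error only. The upper end of this interval is wide since it rests on 1 subordinate read. In an exact two-sided permutation test over the 6 libraries p was 0.1, the smallest value that 3 against 3 allows. The groups did not overlap in the same direction for 65 of 353 miRNAs tested (18.4%).

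Bta-miR-122 had 4, 1 and 3 reads in dominant and 0, 0 and 1 reads in subordinate libraries. Dominant replicate 2 and subordinate replicate 3 had 1 read each and differed only through scaling, at 4.64 and 3.53 CPM. The groups thus did not overlap in CPM, but they met in reads. The dominant libraries had a mean of 9.43 ± 4.74 CPM and the subordinate ones 1.18 ± 2.04 CPM (SD, n = 3 each). The log2 fold change was 2.75 ± 1.04 (standard error), and its adjusted p of 0.0956 in edgeR is close to the limit of 0.1. The exact counting interval of the pooled ratio, 9.16, ran from 1.23 to 407. The call was lost without the detection rule (adjusted p = 0.145 over all miRNAs with a read), with the precursor rows summed (0.111), with the replicate number as a block (0.182) and at a false discovery rate of 0.05. It was also lost with DESeq2 (adjusted p = 0.329 without its filters; with them no adjusted p was given) and when any library other than subordinate replicate 3 was left out (adjusted p from 0.108 to 0.22).

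**Figure D2:**
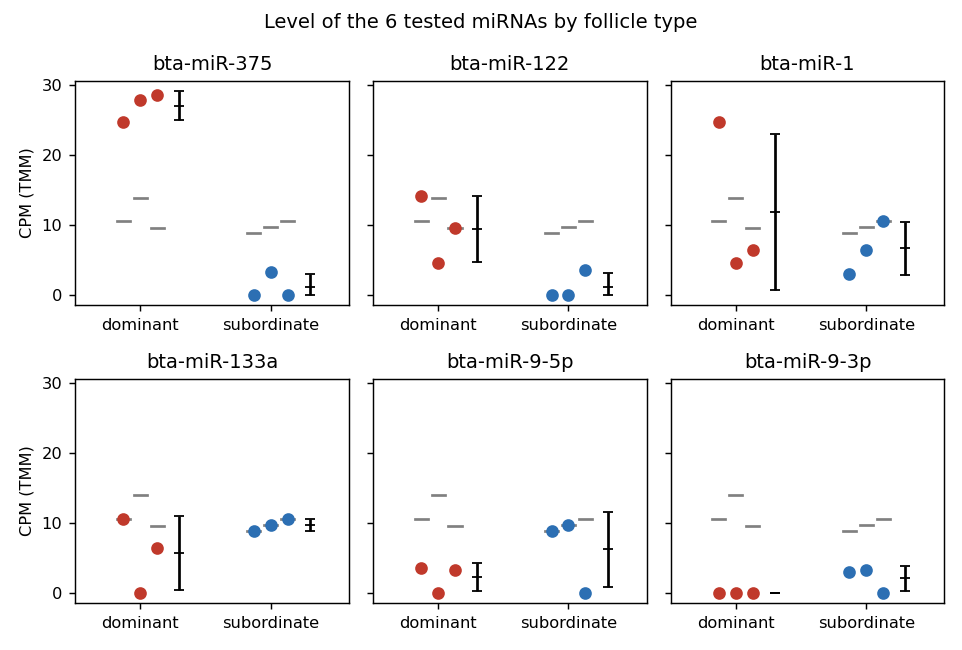
CPM with TMM factors (vertical axis) of the 6 tested members in dominant (red) and subordinate (blue) libraries, replicates 1 to 3 from left to right. Black bars give mean and SD (n = 3, the lower arm stopping at 0) and gray ticks the CPM of 3 reads in each library. The 3 dominant values of bta-miR-375 lie between 24.7 and 28.7 CPM, above their gray ticks, and apart from dominant replicate 1 of bta-miR-122 and bta-miR-1 all other values lie at or below theirs.

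Among the muscle miRNAs, bta-miR-1 had 7, 1 and 2 reads in dominant and 1, 2 and 3 reads in subordinate libraries. Dominant replicate 1 stood above the other libraries, which all had 1 to 3 reads. The means were 11.9 ± 11.1 and 6.67 ± 3.82 CPM (SD, n = 3 each), and the log2 fold change of 0.86 (adjusted p = 0.467, standard error 0.82) did not pass the test. Without dominant replicate 1 the fold change was -0.19 (adjusted p = 0.929), so its sign rests on that library. Both precursor rows of bta-miR-1 held the same counts, and its reads cannot be assigned to MIR1-1 or MIR1-2.

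Bta-miR-133a, the partner of miR-1 in both of its precursor pairs, had 3, 0 and 2 reads in dominant libraries and 3 reads in each subordinate library. The means were 5.65 ± 5.33 CPM in dominant and 9.72 ± 0.86 CPM in subordinate libraries (SD, n = 3 each), with a log2 fold change of -0.65 (adjusted p = 0.571, standard error 0.79). The pooled ratio was 0.636, with an exact counting interval from 0.168 to 2.11, which includes 1. Its 7 reads put bta-miR-1 ahead of bta-miR-133a in dominant replicate 1, and bta-miR-133a had at least as many reads as bta-miR-1 in every subordinate library.

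The skeletal muscle pair of bta-miR-206 and bta-miR-133b had no read in any of the 6 libraries. Over all libraries together, 0 reads allow a level of up to 1.72 CPM for each (3 reads, counting error only). Both are among the 297 of all 755 names (39.3%) that had no read. MiR-133b is nearly identical to miR-133a, and the tables placed all 14 reads of the pair under bta-miR-133a. From the other muscle miRNAs, bta-miR-208a had no read, bta-miR-208b had 1 read in dominant replicate 2, and bta-miR-499 had 3, 0 and 2 reads in dominant and 4, 1 and 3 reads in subordinate libraries (adjusted p = 0.716). These are miRNAs of striated muscle. Smooth muscle of the follicle wall is known instead for miR-143 and miR-145. With miR-199a and miR-214 they summed to between 17601 and 27821 CPM in dominant and between 21063 and 35748 CPM in subordinate libraries. Most of this was bta-miR-143, at 15222 to 25302 CPM in dominant and 18996 to 32960 CPM in subordinate libraries. The paper lists bta-miR-143 among the most abundant miRNAs of granulosa cells from subordinate follicles, so the sum is no measure of smooth muscle. Of the 5 names summed 1 was called, bta-miR-214, which was lower in dominant follicles (log2 fold change -1.20, adjusted p = 0.0417). Among all miRNAs tested, 9.63% were called lower. The part of smooth muscle cells in the few reads of bta-miR-1 and bta-miR-133a was not tested.

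The neural members stayed at 3 reads or fewer in every library. Bta-miR-9-5p had 1, 0 and 1 reads in dominant and 3, 3 and 0 reads in subordinate libraries, and the groups overlapped, since subordinate replicate 3 had none. Its means were 2.24 ± 1.95 and 6.19 ± 5.37 CPM (SD, n = 3 each), with a log2 fold change of -1.25 (adjusted p = 0.45, standard error 1.11). Bta-miR-9-3p, from the other arm of the same hairpins, had no read in dominant libraries and 1, 1 and 0 reads in subordinate ones (adjusted p = 0.276), and no fold is given because both groups are below 3 reads. Its reads came from the same subordinate libraries in which bta-miR-9-5p had 3. Over all libraries the arms had 8 (5p) and 2 (3p) reads. Bta-miR-124a and bta-miR-124b each had 1 read in dominant replicate 3 and none elsewhere. The value 1 stood in all 6 rows that pair these names with 3 precursors, and the counts cannot tell whether it was a single read of the shared sequence.

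**Figure D3:**
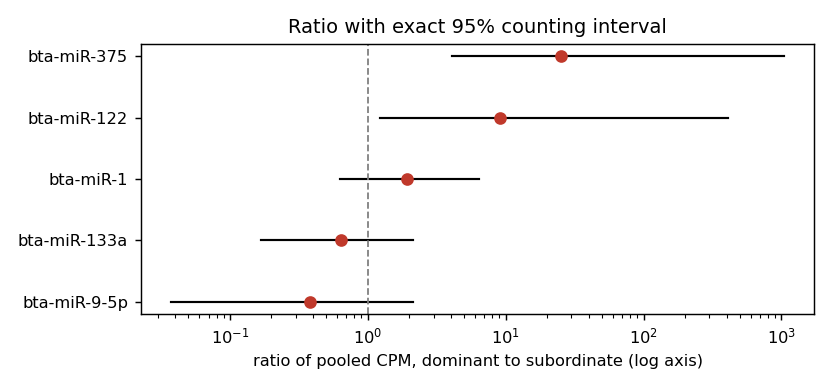
Ratio of pooled CPM in dominant to subordinate libraries (horizontal log axis) for the 5 members with more than 3 reads in at least 1 group. Lines are exact 95% intervals that cover counting error only, and the dashed line marks a ratio of 1. The intervals of bta-miR-375 (from 4.07) and bta-miR-122 (from 1.23) lie above 1, and those of bta-miR-1, bta-miR-133a and bta-miR-9-5p include it.

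The order of the members differed by name between the groups. In dominant libraries bta-miR-375 came first, followed by bta-miR-1, bta-miR-122, bta-miR-133a and bta-miR-9-5p. The SDs of bta-miR-1, bta-miR-122 and bta-miR-133a overlapped, so that only the first place stood clear of its neighbour in 2 of 3 libraries, with 24.7 CPM for both bta-miR-375 and bta-miR-1 in dominant replicate 1. In subordinate libraries bta-miR-133a came first at 9.72 CPM, followed by bta-miR-1, bta-miR-9-5p, bta-miR-9-3p, bta-miR-122 and bta-miR-375. Neighbours in that order overlapped within their SDs, and no subordinate library had more than 3 reads of any member.

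For miRNAs as rare as the members the test rarely gave a call. The 6 tested members had a mean between 0.333 and 3.83 reads over the 6 libraries, against a median of 15.5 for all miRNAs tested. In this range 110 miRNAs were tested, of which 5 were called higher (4.55%) and 5 lower (4.55%) in dominant follicles. Those called higher were bta-miR-375, bta-miR-122, bta-miR-1224, bta-miR-2313-5p and bta-miR-2366, the last 3 named here after their values were seen. Bta-miR-375 had the lowest adjusted p of these 5. Its own mean of 3.83 reads set the upper end of the range, so no miRNA in it could have more reads. The median log2 fold change of the 6 tested members was 0.11, beside -0.20 for all miRNAs tested. Bta-miR-375, bta-miR-122 and bta-miR-9-3p entered the test through a single group, so this median is no measure of the members either.

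**Figure D4:**
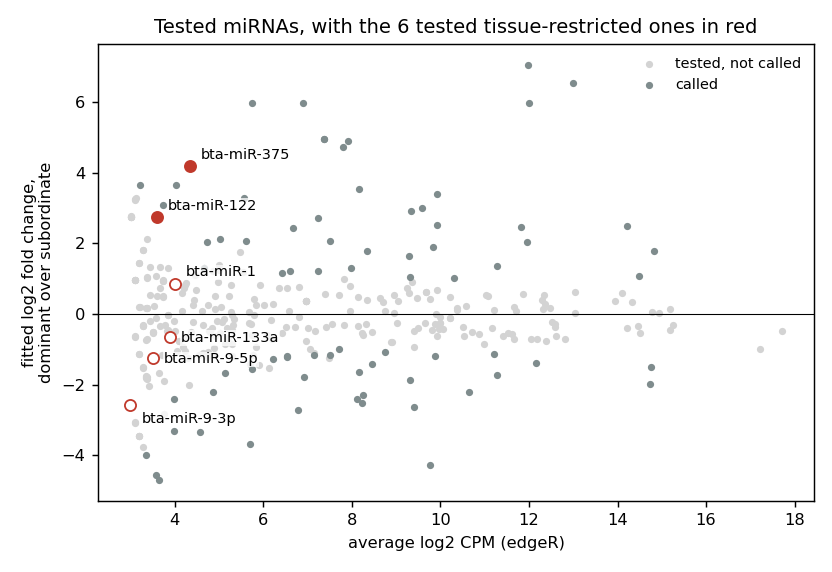
Fitted log2 fold change of dominant over subordinate (vertical axis) against average log2 CPM (horizontal axis) for the 353 miRNAs tested. Large red points are the 6 tested members, filled where called. They lie at the left edge of the plot, with bta-miR-375 at 4.19 and bta-miR-122 at 2.75 above the others.

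Other tissue-restricted miRNAs were read from a list of 16 names of muscle, pancreas and nerve cells. Of these 6 had no read in any library (39.3% of all names had none). Another 9 were tested and 3 were called, all higher in dominant follicles, beside 11.9% of all miRNAs tested. The 3 names are bta-miR-129, bta-miR-129-5p and bta-miR-129-3p, and bta-miR-129 held the same counts as bta-miR-129-5p, so they are not separate measurements. MiR-129 is best known from brain. Bta-miR-129-5p had 91, 86 and 71 reads in dominant and 2, 3 and 4 reads in subordinate libraries, a log2 fold change of 4.95 (adjusted p = 8.15e-05, standard error 0.42). Bta-miR-7, which shares endocrine cells with miR-375, had between 81 and 198 reads in all 6 libraries, and the lowest and the highest were both subordinate (log2 fold change 0.094, adjusted p = 0.834). The pancreatic bta-miR-216a, bta-miR-216b and bta-miR-217 had no read.

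Bta-miR-375 was also compared with miRNAs of other cell types. Epithelial miRNAs, with which miR-375 occurs in other organs, stayed low: the names of the miR-200 family with bta-miR-205 had at most 5 reads in any library, and the 1 tested, bta-miR-141, did not pass (adjusted p = 0.79). Of the 3 erythroid names, bta-miR-451 and bta-miR-486 were called higher in dominant follicles, beside 11.9% of all miRNAs tested. The groups overlapped in CPM for both names. Their sum with bta-miR-144 was 13090, 8246 and 1048 CPM in dominant replicates 1 to 3 and between 808 and 1530 CPM in subordinate libraries. Dominant replicate 3, with 9 reads of bta-miR-375 and 3 of bta-miR-122, lay within the subordinate range of this sum, and the other 2 dominant libraries lay above it. The part of blood cells in either result was not tested. With that library alone set against the 3 subordinate ones, the log2 fold change of bta-miR-375 was 4.28 and that of bta-miR-122 was 2.73. This comparison was chosen after seeing the data. A lone library has no spread of its own, so the comparison does not test the part of blood cells. Leukocyte miRNAs had between 258 and 1115 CPM in dominant and between 408 and 558 CPM in subordinate libraries, and the 3 tested names did not pass. The arms of endothelial miR-126 summed to between 73.2 and 293 CPM in dominant and between 354 and 540 CPM in subordinate libraries, where bta-miR-126-3p had an adjusted p of 0.105 and bta-miR-126-5p one of 0.113. In such libraries more cells of a type and more RNA per cell cannot be told apart.

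Bta-miR-202, a miRNA of the gonadal somatic cells, had 12884, 10079 and 13664 reads in dominant and 3920, 4709 and 3484 reads in subordinate libraries. It was abundant in all 6, but does not by itself tell granulosa cells from other somatic cells of the follicle. For purity the paper reported a strong signal of FSHR and very little of the theca cell marker CYP17A1 in all samples. The log2 fold change of bta-miR-202 was 1.80 (adjusted p = 8.15e-05). Among the 194 other tested miRNAs that averaged 10 reads or more it was the one whose log2 CPM followed bta-miR-375 most closely, with a Pearson r of 0.99 over the 6 libraries, before bta-miR-424-3p and bta-miR-103, also at 0.99. The median over these candidates was -0.06. Bta-miR-375 was taken for this after it was called higher, and a step between the groups alone gives a high r. Bta-miR-103 reached its r with a log2 fold change of 0.51. All these values share libraries and scaling, and bta-miR-375 had few reads, so the r is a description only.

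**Figure D5:**
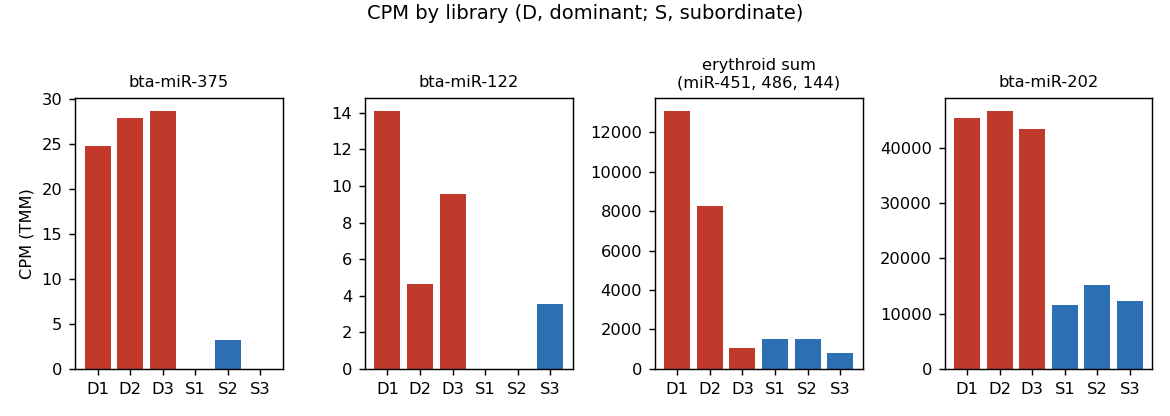
CPM with TMM factors (vertical axes, each from 0 with its own scale) in dominant libraries D1 to D3 (red) and subordinate libraries S1 to S3 (blue) for bta-miR-375, bta-miR-122, the sum of the erythroid miRNAs and bta-miR-202. The erythroid sum is 13090, 8246 and 1048 CPM in D1 to D3, and bta-miR-375 is at 24.7, 27.8 and 28.7 CPM in the same libraries.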

How the data were processed

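The deposited counts are reads listed by mature miRNA and precursor, with 906 rows per library. The authors used Cutadapt and Seqtk to trim adapters and to drop reads that were short or of low quality, mapped the rest to the bovine genome (UMD3.1 in the submitters' processing notes) with Bowtie and counted known miRBase miRNAs with miRDeep2. The counts carry no normalization. For each mature name the largest precursor row was used. Groups came from the sample labels. Counts were tested with edgeR 4.0.16 (R 4.3.3), TMM factors and a quasi-likelihood fit on follicle type, over miRNAs with at least 1 read in at least 2 libraries of a group. A standard error was taken as |log2 fold change|/√F. Nothing in the sources ties libraries to separate animals, so p-values measure the spread between pools. Exact intervals are Clopper-Pearson on pooled reads, conditional on their sum. PCR reads carry no molecular identifiers, so intervals and limits cover counting error only.

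Alternatives were DESeq2 1.42.0 (the authors' tool), other scalings and filters, summed precursor rows, the replicate number as a block and each library left out. Scripts were tested on simulated data. Named miRNAs were the members, the fixed lists of other tissues and cell types, and the closest patterns to a called member with a mean of at least 3 reads. Members and lists were chosen with earlier results of these data known. Mature sequences were not used here. Python 3.11.15, pandas 2.3.3, scipy 1.17.1 and matplotlib 3.10.9 were used.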

Additional observations from a re-analysis of the deposited data

How the results depend on the processing

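Bta-miR-375 was called under every alternative that tested it and kept at least 2 libraries in each group. Its log2 fold change there ran from 3.69 to 5.98 and its adjusted p from 0.00405 to 0.0287. The highest fold change, 5.98, came without subordinate replicate 2, the only subordinate library with a read. Requiring 10 reads or more in 3 or more libraries, or edgeR's filterByExpr, left no member to test. The number of members called fell from 2 to 1 with DESeq2 with or without its filters, no filter and summed precursor rows. It also fell to 1 with the replicate block and at a false discovery rate of at most 0.05. With each library left out it was 1 to 2. Bta-miR-122 was the one not called (with the filters of DESeq2 it had no adjusted p). Over its alternatives bta-miR-122 had a log2 fold change from 2.25 to 4.57 (the highest without subordinate replicate 3) and an adjusted p from 0.0496 to 0.329. The fold change of bta-miR-1 lay between -0.19 (without dominant replicate 1) and 1.31 with 1 library left out, and was -0.045 with dominant replicate 3 alone. No other tested member changed direction. With at least 3 reads in at least 2 libraries as the rule, 2 members were detected in dominant and 2 in subordinate libraries, and with at least 5 reads 1 and 0. Of all miRNAs tested 76 were called (42 higher, 34 lower in dominant), between 54 and 78 with each library left out, and 39 with dominant replicate 3 alone. Total counts without a composition factor moved the median log2 fold change of all miRNAs by 0.19 and gave 47 higher and 23 lower.

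The replicate numbers are shared by both groups in the labels. Same-numbered libraries deviated from their group means with correlations of 0.0072, 0.112 and 0.269, the last being the highest of all. Differently numbered libraries had correlations from -0.216 to 0.181, the highest between dominant replicate 1 and subordinate replicate 2. These values do not settle whether the numbers are pairs. The labels name no pairs, and the main test used no block. With the replicate block 71 miRNAs and 1 member were called, and bta-miR-375 had a log2 fold change of 4.22 (adjusted p = 0.0219) and bta-miR-122 one of 2.70 (adjusted p = 0.182).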
